A study of Mus musculus with 14 samples.

Results

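The loops described here are chromatin contacts that were listed after auxin treatment in both cell types of the study and listed without auxin in neither. A loop is a pair of 10 kb genome bins, its anchors, that the caller MAPS scored as contacting each other more often than its background model expected. The members were all pairs whose exact bins stood in both auxin lists of MAPS and in neither of its control lists, which gave 1791 of the 137221 pairs in any of the 4 lists (1.31%). They are called shared auxin-only loops below. Because they were chosen by presence and absence in these 4 lists, and so by the read count, ratio to background and false discovery rate (FDR) behind each call, their presence after auxin is not a result, and these values are given as a description.

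The series measured contacts of active promoters with H3K4me3 PLAC-seq, in which ligated chromatin is enriched with an antibody against histone H3 trimethylated at lysine 4, a mark of promoters, before sequencing. All 4 groups used here were F123 mouse cells in which the CTCF protein carries an auxin-inducible degron (CTCF-AID), the controls included. ESC auxin were embryonic stem cells given auxin for 48 h, and ESC control were the same cells at 0 h. NPC auxin were neural precursor cells at day 4 of differentiation with auxin, and NPC control were day 4 cells without it. Auxin was added as 1 µl of a 500 mM stock per ml of medium. The labels give 2 samples per group but each caller has 1 list per group, so no difference has a replicate check, no test between conditions was possible, and the 95% intervals (exact Clopper-Pearson) cover counting error only. The degron line is shared by all groups, and the lists hold no protein or RNA level, so the loss of CTCF and the cell identity were not checked here. The series also has 6 samples in 3 groups that carry dCas9, not analysed here.

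CTCF is a zinc finger protein that binds DNA and halts cohesin, a ring complex that extrudes chromatin into loops. Many loops have CTCF at their anchors, and CTCF sites can also separate a promoter from regions beyond them. Contacts between active promoters and enhancers are also known to form without CTCF.

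A pair had to reach a count of 12 reads, a ratio of count to expected background of 2.00 and an FDR under 0.01 in every MAPS list, at distances of 20 to 1000 kb on the 19 autosomes. Absence from a list therefore means that a pair missed a threshold, not that the contact was absent. A contact made in fewer cells and a weaker contact in every cell cannot be told apart in such bulk lists. The lists held 27610 loops in ESC auxin, 56714 in ESC control, 41667 in NPC auxin and 82861 in NPC control. A total of contacts was derived from each list of the second caller, FitHiChIP, as a stand-in for depth. It was the median of the expected contacts divided by the caller's contact probability. The totals were 48307867 in ESC auxin, 47519917 in ESC control, 59961568 in NPC auxin and 52337421 in NPC control. Their log2 ratio of auxin to control was 0.02 in ESCs and 0.20 in NPCs. Of the 71345 pairs in either ESC list, 14631 (20.5%) were listed only after auxin, and of the 102137 pairs in either NPC list, 19276 (18.9%).

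Promoters from bins with many of these loops are shown by the 250 bases before the RefSeq transcription start, since the H3K4me3-marked promoter is the feature that the assay enriches. Sequences are from RefSeq, build GRCm38.p6, written 5′ to 3′ on the gene's strand, and capitals mark a match to a searched motif. Pwp1 (chr10:85871581-85871830, plus strand), Wrap53 (chr11:69579250-69579499, minus strand), Arhgap35 (chr7:16614994-16615243, minus strand) and Fdxr (chr11:115276970-115277219, minus strand) each lie in a bin with 5 or 6 shared auxin-only loops. Zfp354b (chr11:50931636-50931885, minus strand) and Phykpl (chr11:51584531-51584780, plus strand) are the 2 ends of one such loop.
Pwp1: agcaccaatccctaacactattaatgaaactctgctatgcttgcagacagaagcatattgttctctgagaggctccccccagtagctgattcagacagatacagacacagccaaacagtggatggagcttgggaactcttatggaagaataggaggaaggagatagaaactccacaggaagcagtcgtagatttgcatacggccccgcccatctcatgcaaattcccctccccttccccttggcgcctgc
Wrap53: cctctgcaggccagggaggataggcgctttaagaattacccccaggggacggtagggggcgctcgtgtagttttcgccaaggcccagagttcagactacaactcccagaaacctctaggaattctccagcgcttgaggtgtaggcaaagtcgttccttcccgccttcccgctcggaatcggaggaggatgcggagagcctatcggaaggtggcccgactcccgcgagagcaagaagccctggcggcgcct
Arhgap35: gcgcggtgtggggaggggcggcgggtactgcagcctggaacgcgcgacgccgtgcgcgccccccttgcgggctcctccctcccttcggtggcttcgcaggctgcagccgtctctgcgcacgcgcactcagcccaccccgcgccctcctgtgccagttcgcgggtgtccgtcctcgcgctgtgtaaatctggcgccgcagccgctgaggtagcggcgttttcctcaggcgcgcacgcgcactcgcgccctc
Fdxr: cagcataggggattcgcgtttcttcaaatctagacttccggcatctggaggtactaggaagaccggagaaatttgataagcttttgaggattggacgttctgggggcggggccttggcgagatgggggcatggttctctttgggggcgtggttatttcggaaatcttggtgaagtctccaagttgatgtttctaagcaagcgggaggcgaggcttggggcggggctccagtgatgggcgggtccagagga
Zfp354b: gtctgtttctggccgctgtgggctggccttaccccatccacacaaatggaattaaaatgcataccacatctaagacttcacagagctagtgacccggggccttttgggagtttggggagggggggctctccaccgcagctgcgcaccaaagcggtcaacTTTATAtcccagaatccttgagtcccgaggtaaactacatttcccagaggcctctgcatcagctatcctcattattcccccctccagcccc
Phykpl: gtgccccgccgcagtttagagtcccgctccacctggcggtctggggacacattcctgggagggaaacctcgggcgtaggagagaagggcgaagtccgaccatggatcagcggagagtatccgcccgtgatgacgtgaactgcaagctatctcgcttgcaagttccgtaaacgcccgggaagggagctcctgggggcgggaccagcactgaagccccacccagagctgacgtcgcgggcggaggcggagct
Arhgap35 had the highest GC content, 73.6%, and the most CpG dinucleotides, 36, while Pwp1 had the lowest GC content and 4 CpG dinucleotides. The motifs searched, on both strands, were the CTCF core (CC, then 3 bases of any kind, AG, 2 of any kind, and GGC), the YY1 core CAAGATGGC and the TATA box TATAAA. In these 6 stretches the 1 match was a TATA box letter pattern on the opposite strand at Zfp354b.

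Over all promoter windows of 300 bases in the RefSeq table, 10.1% held the CTCF core, 1.41% the YY1 core and 12.7% the TATA box. Among the 1382 windows in anchor bins of the shared auxin-only loops, the CTCF core stood in 194 (14%, 12.2 to 16%), the YY1 core in 1.95% and the TATA box in 7.09%. Windows in the other anchor bins, those with a loop in each auxin list but no shared auxin-only loop, held them in 13.2%, 2.33% and 7.55%. The bins of the shared auxin-only loops thus had motif shares close to those of other promoters whose bins had loops in both auxin lists. The median GC content was 61.3% in their windows, 61.0% in the other anchor bins and 57.0% over all windows. A letter match is a description and says nothing of binding.

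Most pairs listed after auxin in both cell types were listed in a control as well. Of the 10440 pairs in both auxin lists, the 1791 in neither control list were 17.2%, while 5954 (57.0%) were in both controls, 1991 (19.1%) in NPC control only and 704 (6.74%) in ESC control only. The shared auxin-only loops were 12.2% (11.7 to 12.8%) of the loops listed in ESC auxin and not in ESC control. They were 9.29% (8.89 to 9.71%) of those listed in NPC auxin and not in NPC control. More of the ESC auxin-only pairs, 3839 (26.2%), stood in the NPC control list than were shared auxin-only loops, and 2084 (10.8%) of the NPC auxin-only pairs stood in ESC control. In the opposite direction 13952 pairs (10.2% of all) were in both control lists and in neither auxin list, 7.79 for each shared auxin-only loop. These are called lost control loops below.

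**Figure D1:**
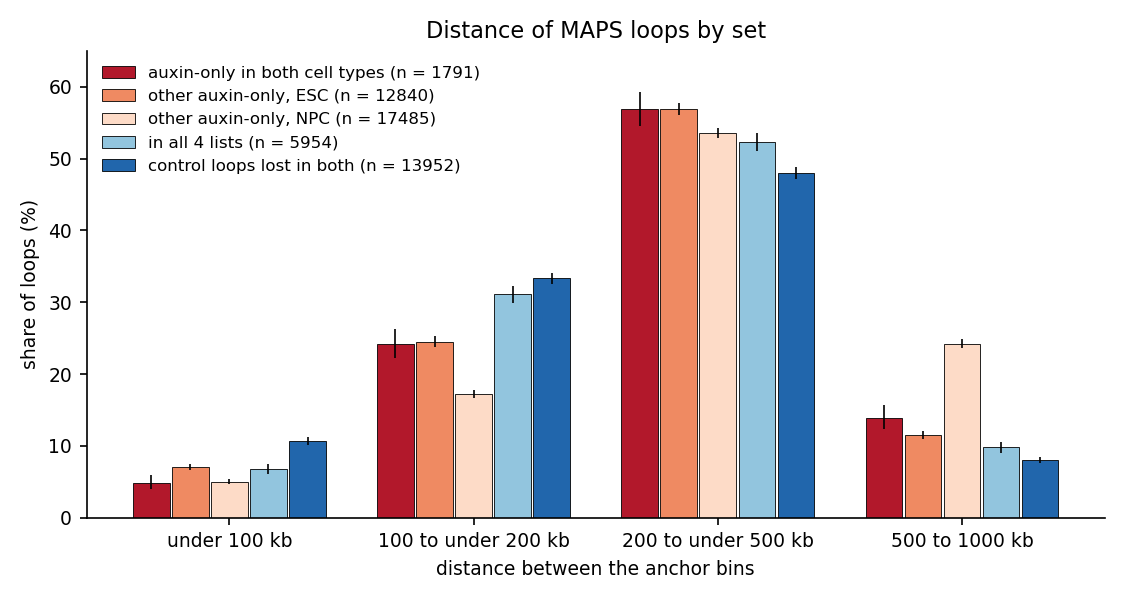
Share of loops (%, vertical axis) in 4 classes of distance between anchors (kb, horizontal axis) for the shared auxin-only loops, the other auxin-only loops of ESCs and of NPCs, the loops in all 4 lists and the lost control loops, with 95% exact binomial intervals. Of the shared auxin-only loops 56.9% lay at 200 to under 500 kb and 14% at 500 to 1000 kb, against 52.3% and 9.81% of the loops in all 4 lists.

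The shared auxin-only loops spanned a median of 280 kb (270 to 290 kb), with quartiles at 180 and 390 kb. The median was 230 kb for the loops in all 4 lists and 220 kb for the lost control loops. As the plot of distance classes shows, 4.91% of the shared auxin-only loops lay under 100 kb and 24.2% at 100 to under 200 kb, while the lost control loops had 10.7% and 33.3% there. They were thus longer than the loops that stayed and than those that were lost. Among loops listed only after auxin they lay between the other ESC auxin-only loops, with a median of 260 kb, and the other NPC auxin-only loops, with 330 kb.

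A promoter mark at both anchors was common. By the caller's marks for ESCs, 764 of the shared auxin-only loops (42.7%, 40.4 to 45.0%) had an H3K4me3 peak bin at both anchors, against 41.2% of the loops in all 4 lists, 33.7% of the other ESC auxin-only loops and 23.8% of the lost control loops. By the marks for NPCs the share was 37.5%, against 35.7%, 24.2% (other NPC auxin-only loops) and 18.7%. The auxin and control lists of a cell type carry the same marks, so these classes do not show H3K4me3 after auxin. Promoter bins of coding genes stood at both anchors of 356 shared auxin-only loops (19.9%, 18.1 to 21.8%), at 1 anchor of 58.6% and at none of 21.6%. Both anchors were promoter bins in 14.5% of the loops in all 4 lists, 14.5% of the other ESC auxin-only loops, 12.5% of the other NPC auxin-only loops and 9.06% of the lost control loops. The intervals of these shares did not overlap that of the shared auxin-only loops, but loops that share a bin are not independent and the intervals are likely too narrow.

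The shared auxin-only loops were weaker by the caller's own values than the loops in all 4 lists. Their median count was 25 reads in ESC auxin and 29 in NPC auxin, against 32 and 39 for the loops in all 4 lists. Their median ratio was 2.77 in ESC auxin and 2.63 in NPC auxin, against 3.0 and 2.94. Many lay near a limit, with the larger FDR above 0.005 in 453 (25.3%), the smaller ratio under 2.2 in 424 (23.7%) and the smaller count at 12 to 14 reads in 199 (11.1%). At the other end, 389 (21.7%) had an FDR under 0.0001 in both auxin lists. Just outside the rule stood the 2695 pairs of both auxin lists that 1 control list held, and that control list gave an FDR above 0.005 for 169 of them (6.27%) and a ratio under 2.2 for 260 (9.65%).

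How often a pair of both auxin lists was missing from the controls went with its FDR. In 5 classes of equal size by the larger FDR, the share in neither control list was 6.51%, 12.9%, 16.8%, 21.6% and 28% from the strongest to the weakest class. By distance the share was 13.7% under 100 kb, 14.8% at 100 to under 200 kb, 18% at 200 to under 500 kb and 20.5% at 500 to 1000 kb. The rise with distance was unbroken in none of the 5 FDR classes. In the strongest class the 4 shares were 6.83%, 8.88%, 4.30% and 3.87%, the last of which rests on 6 loops, and in the weakest class 24.3%, 27.9%, 27.2% and 32.4%. The FDR and distance values come from the contrast that chose the loops and are a description.

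**Figure D2:**
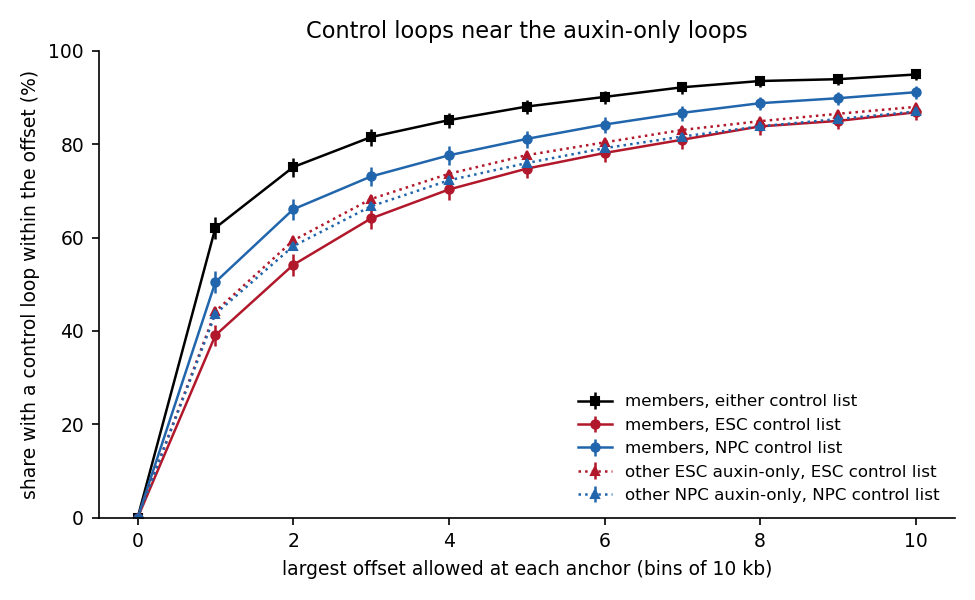
Share of loops (%, vertical axis) with a control loop within a given number of 10 kb bins at both anchors (horizontal axis), with 95% exact binomial intervals, for the shared auxin-only loops (members in the legend) and the other auxin-only loops of ESCs and NPCs. Within 1 bin, 62.1% of the shared auxin-only loops had a loop in either control list, 39.1% in ESC control and 50.5% in NPC control.

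Many of the shared auxin-only loops lay beside a control loop. A loop of either control list had both anchors within 1 bin of those of 1112 (62.1%, 59.8 to 64.3%), within 2 bins of 75.1% and within 3 bins of 81.5%. Against the ESC control list alone the share within 1 bin was 39.1%, and 44.2% of the other ESC auxin-only loops had such a neighbour. Against the NPC control list alone it was 50.5%, and 43.7% for the other NPC auxin-only loops. In the opposite direction, 45.9% of the lost control loops had a loop of either auxin list within 1 bin. The exact-bin rule thus counted as auxin-only many contacts whose neighbouring bin pair was listed without auxin, and 331 (18.5%) had no control loop within 3 bins. These 331 had a median distance of 340 kb (310 to 360 kb), a peak bin at both anchors in 47.7% by ESC marks, and promoter bins at both anchors in 21.8%. The 1112 with a neighbour within 1 bin had 270 kb, 42.8% and 20.5%. No control loop lay within 10 bins of 91.

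The 1791 loops formed 1503 clusters of adjacent pairs, of which 1303 were single pairs and 47 held 3 or more. The largest cluster held 17 pairs between chr11:69390001-69430000 and chr11:69550001-69650000. Its bins hold the promoters of Trp53, which encodes the tumour suppressor p53, of Wrap53, which encodes a Cajal body protein needed for telomerase and overlaps Trp53 on the opposite strand, and of Kdm6b, a demethylase of histone H3 lysine 27. Counts in this cluster ran from 29 to 113 reads in ESC auxin and 33 to 147 in NPC auxin, with ratios of 2.28 to 4.15 and 2.09 to 3.48. A control loop lay within 1 bin of 15 of the 17. The pair in it with the most NPC reads ran from chr11:69410001-69420000 to the Wrap53 bin 160 kb away and had 105 reads in ESC auxin and 147 in NPC auxin.

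**Figure D3:**
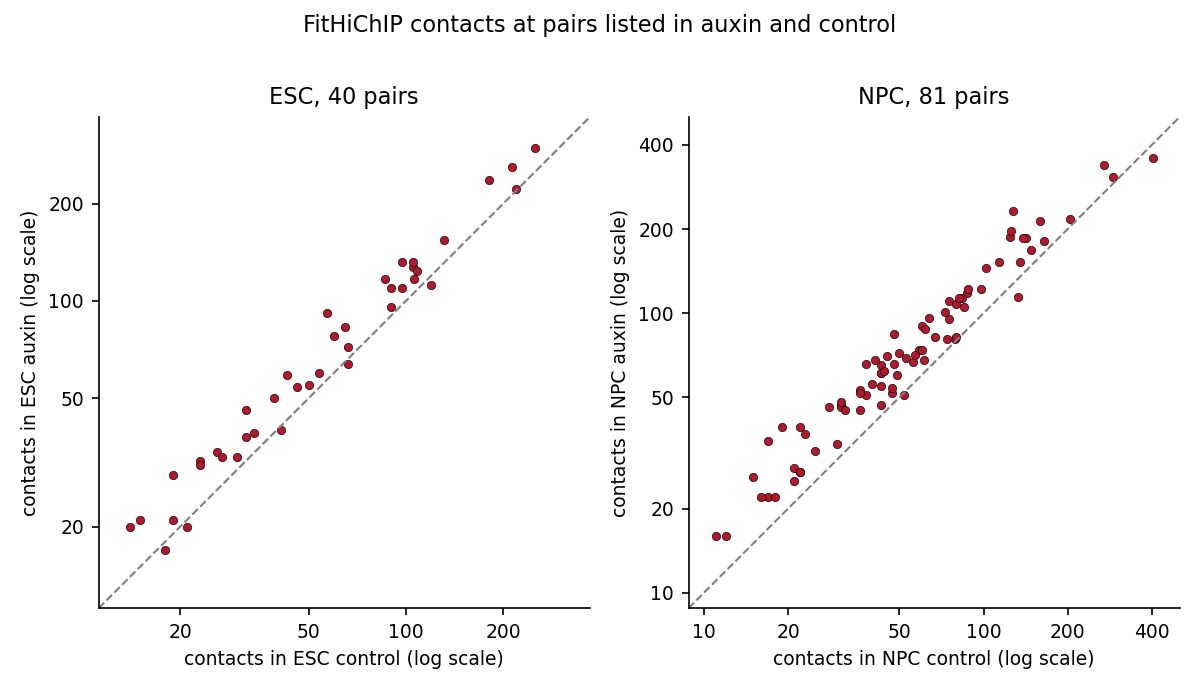
FitHiChIP contact counts per bin pair (log axes) after auxin (vertical axis) and in the control (horizontal axis) for shared auxin-only loops that both FitHiChIP lists of a cell type hold, with the line of equal counts. In ESCs 35 of 40 pairs lay above the line and in NPCs 78 of 81.

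The FitHiChIP lists come from the same groups, so they are not independent data. Of the shared auxin-only loops, its ESC auxin list held 576 (32.2%) and its ESC control list 47 (2.62%), while its NPC auxin list held 523 (29.2%) and its NPC control list 84 (4.69%). Neither of its auxin lists held 1048 (58.5%). For comparison, 48.0% of the loops in all 4 MAPS lists were in its ESC auxin list and 45.5% in its NPC auxin list. Of all loops in the MAPS list of the same group, its ESC auxin list held 28.9% and its NPC auxin list 25.6%. The same rule applied to the FitHiChIP lists gave 1015 of 73306 pairs (1.38%), and 274 pairs met the rule in both callers, 15.3% of the MAPS loops and 27.0% of the FitHiChIP pairs.

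Contact numbers in a control can be read where FitHiChIP listed the pair there too. In ESCs 40 shared auxin-only loops were in both of its lists, with a median of 62 contacts in ESC auxin (17 to 297) and 55.5 in ESC control (14 to 251). The median log2 ratio of auxin to control was 0.26, and 35 pairs were higher and 5 lower after auxin. In NPCs 81 were in both lists, with a median of 68 contacts in NPC auxin (16 to 360) and 50 in NPC control (11 to 403), a median log2 ratio of 0.43, and 78 pairs higher and 3 lower. Divided by the totals derived from the lists, the log2 medians were 0.24 and 0.23, with 34 of 40 and 66 of 81 higher. These pairs were thus contacted in the controls as well, at counts below those after auxin for most. The loops in all 4 MAPS lists had median log2 ratios of -0.13 in ESCs, with 853 of 2504 higher after auxin, and -0.18 in NPCs, with 807 of 2575 higher. The reads are those that chose the loops, so the direction follows in part from the choice.

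**Figure D4:**
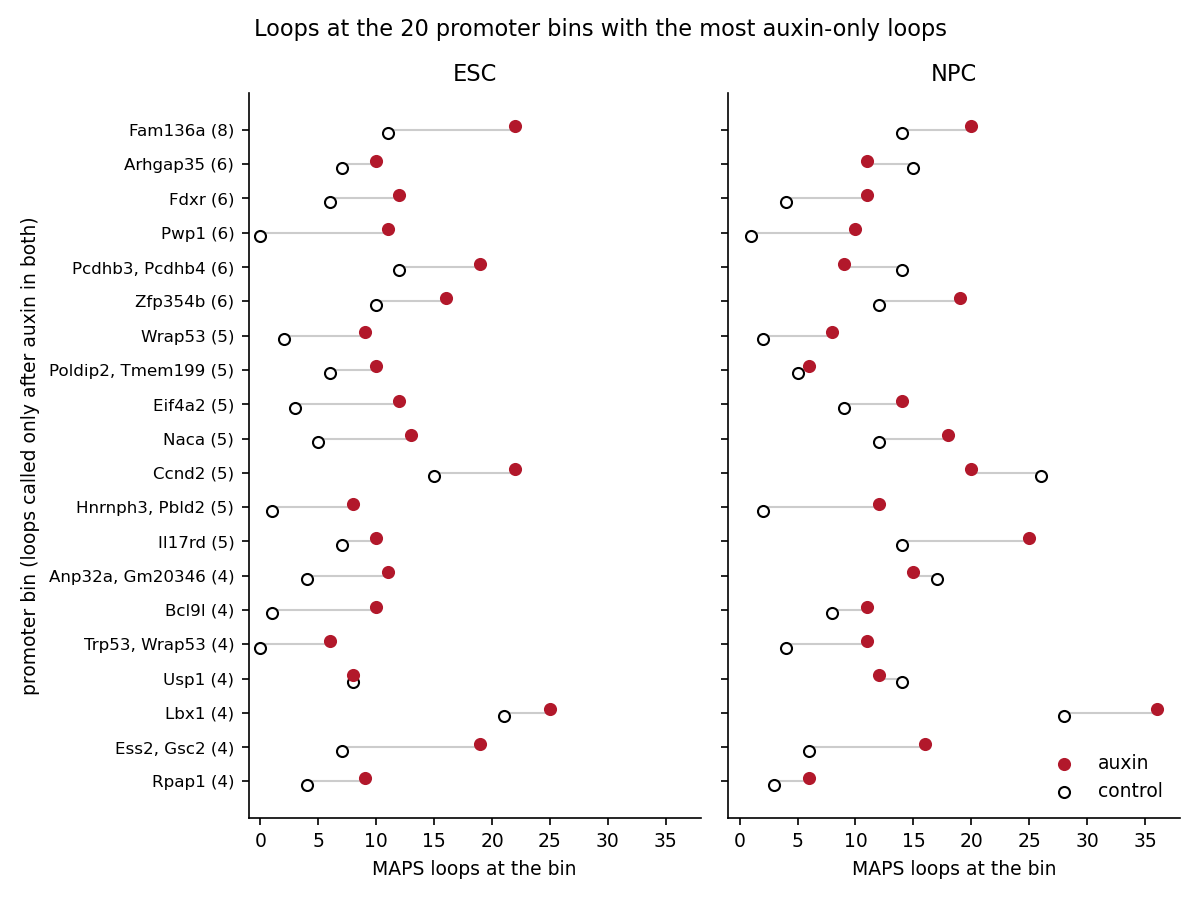
Number of MAPS loops (horizontal axis) with auxin (filled) and in the control (open), in ESCs and in NPCs, at the 20 promoter bins with the most shared auxin-only loops, named by gene with the number of these loops in parentheses. At 19 of the 20 bins the ESC auxin list had more loops than the ESC control list, and at 15 the NPC auxin list had more than the NPC control list.

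The loops touched 2877 bins, of which 2400 (83.4%) held 1 of them, 341 held 2 and 136 held 3 or more, with a highest number of 9. Promoter bins were 1291 of the bins (44.9%). No control loop of either cell type touched 398 of the 2877 (13.8%). Of the 12352 other bins with a loop in each auxin list, 350 (2.83%) had none. The rule left out pairs listed in a control, so this difference follows in part from the choice. A lost control loop touched 37.5% of the bins of the shared auxin-only loops and 37.4% of the other bins. At 125 of the 136 bins with 3 or more (91.9%), all of these loops ran to the same side of the bin. The share was 90.6% for the loops in all 4 lists, 77.7% for the lost control loops, 71.5% for the other ESC auxin-only loops and 70.9% for the other NPC auxin-only loops. These sets differ in size and were not matched for loops per bin, so the shares are not directly comparable.

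Seen from an anchor, the shared auxin-only loops often reached past the control loops. Of the 2397 loop ends whose bin had ESC control loops in the same direction, 45.8% reached farther than all of these and 21.2% stayed nearer than all of them. Of the 2622 ends with NPC control loops in the same direction, 44.1% reached farther and 19.0% stayed nearer. For the other auxin-only loops the shares were 39.6% farther and 25.7% nearer in ESCs, and 42.1% and 21.9% in NPCs.

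At the 20 promoter bins with the most shared auxin-only loops, which hold 4 to 8 each, the summed loops were 262 in ESC auxin, 130 in ESC control, 290 in NPC auxin and 210 in NPC control. ESC auxin had more loops than ESC control at 19 of them and the same number at 1, and NPC auxin had more than NPC control at 15 and fewer at 5. Over all promoter bins with a loop in either list, the share with more loops after auxin was 22.1% in ESCs and 20.3% in NPCs. The bins were ranked by loops gained, so this difference from the background follows from the choice. FitHiChIP listed 141, 80, 139 and 138 pairs at the same bins in the same order of lists, so its NPC sums were nearly equal. Reads could be compared only at bins that both lists of a cell type hold, 2128 of the 2877 in ESCs and 2291 in NPCs for MAPS, and 1429 and 1567 for FitHiChIP, so bins with no control loop are missing. At these the log2 of auxin to control, centred on all bins, had a median of -0.05 in ESCs and -0.05 in NPCs by the MAPS short-range counts, and -0.02 in both by the FitHiChIP coverage.

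Pwp1, which encodes a nuclear WD repeat protein, had 1 loop in the control lists together. Its bin had 11 loops in ESC auxin, 0 in ESC control, 10 in NPC auxin and 1 in NPC control, and FitHiChIP listed 11, 2, 6 and 3. Of its 6 shared auxin-only loops 5 ran to adjacent bins at chr10:85190001-85240000, 640 to 680 kb away, with 13 to 26 reads in ESC auxin and 13 to 33 in NPC auxin. The highest ratio there was 5.57 in ESC auxin, at 660 kb, and 6.85 in NPC auxin, at 650 kb. No promoter bin of a coding gene lies at that far end, and the nearest control loop was 1 to 4 bins from these 5 loops. The sixth loop ran 490 kb to Btbd11 with 25 reads in ESC auxin and 46 in NPC auxin, and the nearest control loop was 17 bins off. Of the promoters printed above, that of Pwp1 has the fewest CpG dinucleotides.

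Bins in gene-dense stretches of chromosome 11 came up repeatedly. Wrap53 (chr11:69570001-69580000) had 9 loops in ESC auxin, 2 in ESC control, 8 in NPC auxin and 2 in NPC control. The next bin, assigned to Trp53 and Wrap53, had 6, 0, 11 and 4. Both reached Kdm6b, at 150 kb with 53 reads in ESC auxin and 51 in NPC auxin from the Wrap53 bin, and at 160 kb with 53 and 64 from the Trp53 bin. FitHiChIP listed both Kdm6b pairs in its 2 auxin lists and in neither control list. Fdxr, the ferredoxin reductase that passes electrons to mitochondrial cytochrome P450 enzymes, had 12, 6, 11 and 4 loops. Its 4 longest shared auxin-only loops, at 470 to 540 kb, had 18 to 21 reads in ESC auxin and 16 to 22 in NPC auxin. They lay 11 bins from the nearest control loop, while the shorter ones at this bin lay 1 bin from one. FitHiChIP listed none of the 6. Zfp354b, a zinc finger protein, had 16, 10, 19 and 12 loops. Its shared auxin-only loops at 580 to 650 kb had ratios of 3.34 to 4.80 in ESC auxin and 3.61 to 5.80 in NPC auxin. Their counts were low, 12 to 18 reads in ESC auxin and 12 to 27 in NPC auxin, against the limit of 12. FitHiChIP listed only the one at 650 kb in both auxin lists.

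The 8 shared auxin-only loops of Fam136a, the highest number at a promoter bin, all ran to one side, 190 to 450 kb away. They had 17 to 28 reads in ESC auxin and 22 to 31 in NPC auxin, a control loop lay within 3 bins of each, and the bin had 22, 11, 20 and 14 loops. Arhgap35, a GTPase-activating protein, had 10 loops in ESC auxin, 7 in ESC control, 11 in NPC auxin and 15 in NPC control, so NPCs had fewer after auxin. Its 6 shared auxin-only loops had 31 to 71 reads in ESC auxin and 33 to 110 in NPC auxin. Some of them reached Slc1a5, a glutamine transporter, at 180 kb with 61 reads in ESC auxin and 56 in NPC auxin, Dact3, a Wnt pathway inhibitor, at 260 kb with 47 and 66, and Gng8, a G protein gamma subunit, at 280 kb with 41 and 44. FitHiChIP listed the Dact3 and Gng8 pairs in both of its auxin lists and in neither control.

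Ccnd2, which encodes cyclin D2, had 22, 15, 20 and 26 loops. Its 5 shared auxin-only loops ran 400 to 460 kb, with 28 to 39 reads in ESC auxin and 28 to 39 in NPC auxin, and were 5 to 11 bins from a control loop. Il17rd, an inhibitor of fibroblast growth factor signalling, had 10, 7, 25 and 14 loops and reached Arhgef3 and Tasor, a subunit of the silencing complex HUSH. Bcl9l, a coactivator of beta-catenin, had 10, 1, 11 and 8 loops. Its pair with Ddx6, an RNA helicase, at 120 kb had 92 reads in ESC auxin and 232 in NPC auxin, and FitHiChIP gave 92 contacts in ESC auxin, 233 in NPC auxin and 127 in NPC control. FitHiChIP thus listed that pair in NPC control, where MAPS did not. Which MAPS limit the pair missed there was not examined. Lbx1, a homeobox factor of muscle precursors and spinal neurons, had 25, 21, 36 and 28 loops, and its farthest shared auxin-only loop, at 460 kb, had ratios of 5.91 in ESC auxin and 3.53 in NPC auxin.

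A further 8 of the 20 bins follow. Eif4a2, a translation initiation helicase, had 12, 3, 14 and 9 loops, and its loops to Fetub and Hrg, genes for plasma proteins made in liver, had 50 and 61 reads in ESC auxin and 44 and 48 in NPC auxin. Naca, a subunit of the complex that binds nascent polypeptides, had 13, 5, 18 and 12 loops and reached Ndufa4l2 at 520 kb with 38 reads in both auxin lists. Hnrnph3, an RNA-binding protein whose bin also holds Pbld2, had 8, 1, 12 and 2 loops and reached Sirt1, a protein deacetylase, at 310 kb with 26 and 57 reads. The bin of Ess2 and Gsc2 had 19, 7, 16 and 6 loops and reached Prodh, proline dehydrogenase, with 61 and 78 reads. Rpap1, which binds RNA polymerase II, had 9, 4, 6 and 3 loops and reached Mga, a partner of Max, with 59 and 73. Of the remaining bins, Anp32a had 11, 4, 15 and 17 loops, Usp1, a deubiquitinase of DNA repair, had 8, 8, 12 and 14, and that of Poldip2 and Tmem199 had 10, 6, 6 and 5.

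Ranked by the smaller of the 2 auxin ratios, the 12 top pairs between promoter bins held several at long range. Unc45b, a myosin chaperone, and Ap2b1, a clathrin adaptor subunit, lie 390 kb apart. They had 25 reads in ESC auxin (ratio 4.57) and 43 in NPC auxin (ratio 6.74), with a control loop 1 bin off. Zfp354b and Phykpl, 650 kb apart, had 18 reads (4.36) and 27 (5.80), with the nearest control loop 5 bins off. Ndufa4l2 and Hsd17b6, 490 kb apart, had 35 reads (5.72) and 34 (4.62), with a control loop 1 bin off. FitHiChIP listed these 3 pairs in both auxin lists and in neither control. The bin of Zic1 and Zic4, zinc finger factors of neural development, met Plscr1, a phospholipid scramblase, over 890 kb with 15 reads (4.39) in ESC auxin and 22 (3.85) in NPC auxin, and the nearest control loop was 26 bins off. Fzd8, a Wnt receptor, met Thoc1, a subunit of the mRNA export complex THO, over 740 kb with 13 reads (3.58) and 45 (4.54). FitHiChIP gave that pair 11 contacts in ESC auxin, 39 in NPC auxin and 19 in NPC control.

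The pair that ranked first by the smaller of its 2 ratios had high FitHiChIP counts in the controls. The promoter bins of 5430403G16Rik and 4930522L14Rik, 100 kb apart on chromosome 5, had 13 reads in ESC auxin (ratio 8.19) and 14 in NPC auxin (ratio 7.77). FitHiChIP counted 297 contacts there in ESC auxin, 251 in ESC control, 360 in NPC auxin and 403 in NPC control. The callers thus counted very different numbers of reads for 1 bin pair, and by FitHiChIP it was contacted in all 4 groups, with fewer contacts in NPC auxin than in NPC control. Why the callers differ there was not tested.

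The shared auxin-only loops with the most reads were short. The bin of Sf3b6, a spliceosome subunit, and a bin 20 kb away had 289 reads in ESC auxin and 270 in NPC auxin, and the nearest control loop was 16 bins off. Bola1 and the histone gene H2ac21, also 20 kb apart, had 254 and 338 reads, and FitHiChIP gave 260 contacts in ESC auxin, 213 in ESC control, 339 in NPC auxin and 270 in NPC control. Npepps, an aminopeptidase, and Mrpl45, a mitochondrial ribosomal protein, had 209 and 207 reads, with a control loop 1 bin off. FitHiChIP gave that pair 222, 219, 218 and 204 contacts. In these FitHiChIP counts the control differed little from the auxin group for Npepps and Mrpl45 and was lower for Bola1 and H2ac21.

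**Figure D5:**
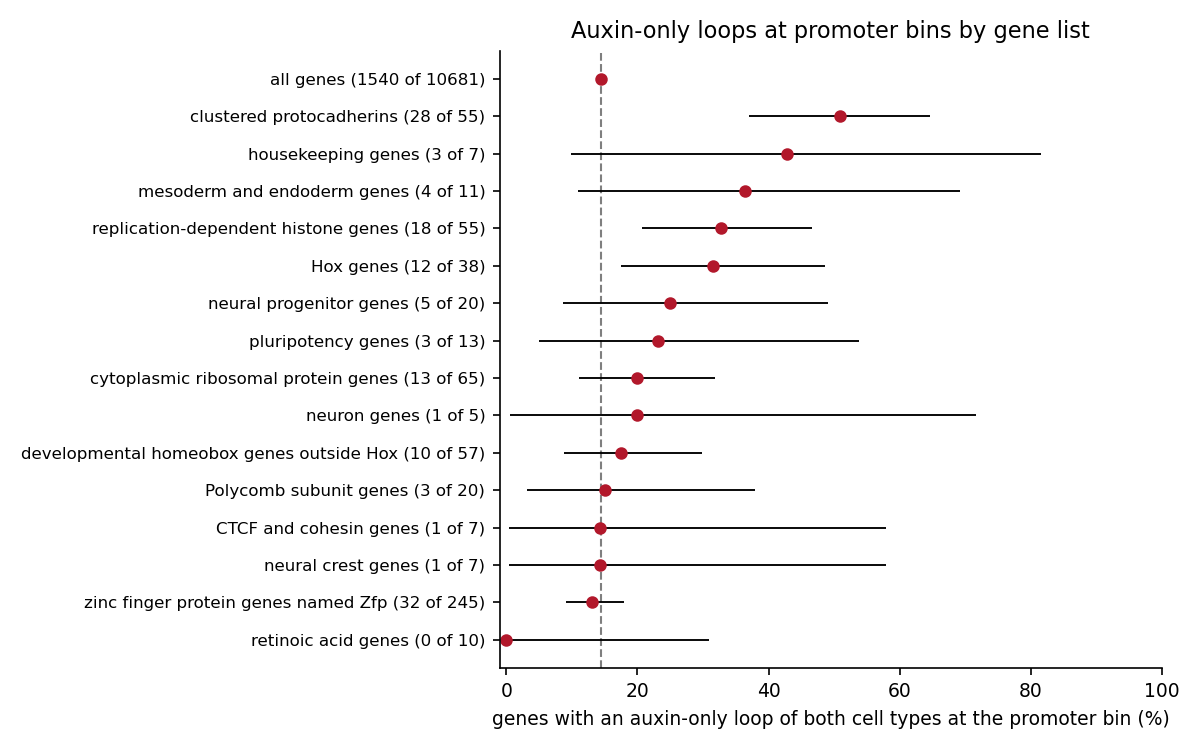
Share of genes (%, horizontal axis) with a shared auxin-only loop at the promoter bin, of the genes with any auxin loop there, for each gene list and for all coding genes, with 95% exact binomial intervals and a dashed line at the share of all coding genes. The clustered protocadherins stood at 50.9% and all coding genes at 14.4%.

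Of the 10681 coding genes with an auxin loop at the promoter bin, 1540 (14.4%) had a shared auxin-only loop there. Genes in 1 bin share their loops, so the counts below are not of independent genes. The clustered protocadherins, cell-surface proteins whose promoter choice in neurons is known to depend on CTCF, had the highest share, 28 of 55 genes (50.9%, 37.1 to 64.6%), through 27 loops. All 28 were placed by a gene end marked as a peak bin, not by a RefSeq start, so a marked bin may hold a neighbour's promoter. The bin of Pcdhb3 and Pcdhb4 had 6 of these, 310 to 420 kb from it, 5 of them to bins of gamma cluster promoters such as Pcdhga3 at 370 kb with 25 reads in both auxin lists. Its loops numbered 19 in ESC auxin, 12 in ESC control, 9 in NPC auxin and 14 in NPC control. Summed over the bins of the list the loops numbered 374, 424, 153 and 386. Over the promoter bins of all coding genes they numbered 22931, 41572, 37573 and 68519. The list as a whole thus had fewer loops with auxin in both cell types. Relative to all coding genes the fall was smaller in ESCs and larger in NPCs.

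The histone genes and the Hox genes also had shares of genes above that of all genes. Counted per loop the Hox genes were below it: of the ESC auxin loops summed over promoter bins, shared auxin-only loops were 3.49% at Hox genes, 12.7% at the histone genes and 7.68% at all coding genes. The replication-dependent histone genes had 18 of 55 (32.7%, 20.7 to 46.7%), through 6 loops, since many share a bin. The H2bc6 and H4c4 bin met that of H2bc3 and H3c3 at 160 kb with 53 reads in ESC auxin and 108 in NPC auxin, and FitHiChIP gave 76 contacts in ESC auxin, 152 in NPC auxin and 135 in NPC control. The Hox genes, regulators of position along the body axis, had 12 of 38 (31.6%, 17.5 to 48.7%), through 9 loops. Their loops were fewer with auxin, at 258 in ESC auxin, 480 in ESC control, 538 in NPC auxin and 930 in NPC control. The relative fall was close to that over all coding genes given above. The bin of Hoxd11 and Hoxd12 met bins 910 and 920 kb away with 13 and 14 reads in ESC auxin and 16 and 13 in NPC auxin. These counts lie near the limit of 12 reads, and a control loop lay 1 bin from each pair. FitHiChIP gave the pair at 910 kb 13 contacts in ESC auxin, 16 in NPC auxin and 11 in NPC control.

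For the pluripotency, neural progenitor, and mesoderm and endoderm genes the shares lay above that of all genes, but each interval includes it. Counted per ESC auxin loop, as above, they lay below it, at 4.48%, 5.10% and 5.49% against 7.68% for all coding genes. The pluripotency genes had 3 of 13 (23.1%, 5.04 to 53.8%), among them Klf4, a factor of the pluripotent state, with 30 reads in ESC auxin and 33 in NPC auxin at 170 kb, and Fgf4, a growth factor of ESCs, with 33 and 27 reads at 240 kb. Klf4 had 2 loops in ESC auxin, 4 in ESC control, 5 in NPC auxin and 26 in NPC control, so the shared auxin-only loop stood beside a lower number of loops in both cell types. The neural progenitor genes had 5 of 20 (25%, 8.66 to 49.1%). Pou3f2, a POU factor of neural progenitors, had 3, running 550 to 640 kb to Faxc, Coq3 and Pnisr with 14 to 23 reads in ESC auxin and 20 to 28 in NPC auxin, all listed by FitHiChIP in both auxin lists and no control. Its loops numbered 8, 3, 10 and 16. Irx3, a homeobox factor, had 2.

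Among mesoderm and endoderm genes, 4 of 11 (36.4%, 10.9 to 69.2%) had a shared auxin-only loop. Gata6, an endoderm factor, met the bin of Esco1, a cohesin acetyltransferase, and Snrpd1 at 440 kb with 20 reads in ESC auxin and 46 in NPC auxin, 15 bins from any control loop, and it had 15, 4, 22 and 23 loops in all. Foxa2, another endoderm factor, met Sstr4, a somatostatin receptor, at 350 kb with 36 and 55 reads and a control loop 1 bin off. The homeobox genes outside Hox had 10 of 57 (17.5%), or 3.83% counted per loop, led by Otx1, a forebrain factor, with 4. Its pair with Ehbp1 at 280 kb had 35 and 47 reads and lay 23 bins from a control loop, but FitHiChIP listed it in ESC control with 23 contacts, beside 32 in ESC auxin. Among neural crest genes 1 of 7 had any, namely Tfap2a, whose 3 loops at 500 to 520 kb had 26 to 34 reads in ESC auxin and 25 to 38 in NPC auxin. Among neuron genes 1 of 5 had one, Neurog1, a proneural factor.

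In the lists of general cell functions the intervals also include the share of all genes. Cytoplasmic ribosomal protein genes had 13 of 65 (20%, 11.1 to 31.8%), led by Rpl7a with 4 loops at 420 to 540 kb and Rpl35 with 3, whose bin had 11 loops in ESC auxin, 1 in ESC control, 15 in NPC auxin and 8 in NPC control. The zinc finger genes named Zfp had 32 of 245 (13.1%). Housekeeping genes had 3 of 7 (42.9%, 9.90 to 81.6%), among them Ubb, which encodes ubiquitin, with 94 and 88 reads at 60 kb, and Tbp, the TATA-binding protein. Polycomb subunit genes, which act in gene silencing, had 3 of 20, and Phc1 among them had 8 loops in ESC auxin, 0 in ESC control, 4 in NPC auxin and 0 in NPC control. Of the CTCF and cohesin genes 1 of 7 had one (Esco1), and of the retinoic acid genes 0 of 10 (upper bound 30.8%).

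By chromosome, 296 of the loops (16.5%) lay on chromosome 11, which held 12.9% of all ESC auxin loops and 10.5% of all NPC auxin loops. The share of pairs in both auxin lists that were in neither control ran from 11.9% on chromosome 12 to 23.4% on chromosome 18. In windows of 1 Mb, 663 held a shared auxin-only loop and 12 held 10 or more, 183 loops in all. The fullest, chr11:69000001-70000000, held 30 and includes Trp53, Wrap53 and Kdm6b, and the next, chr18:37000001-38000000, held 26 and is that of the beta and gamma protocadherins. In the window chr11:114000001-115000000, which includes the far ends of 4 of the 6 Fdxr loops, 16 of the 20 pairs in both auxin lists were in neither control, and the loops numbered 99 in ESC auxin, 53 in ESC control, 96 in NPC auxin and 43 in NPC control. That window therefore had more loops after auxin in both cell types, whereas the protocadherin window had 201, 273, 111 and 273.

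The shared auxin-only loops had slightly higher raw counts in NPC auxin than in ESC auxin. These counts were not scaled to depth, and the total derived from the FitHiChIP list was also higher in NPC auxin, at 59961568 contacts against 48307867. The counts therefore do not show stronger contact in NPCs. The NPC auxin count was higher at 1151, the ESC auxin count at 527, and they were equal at 113, with a median log2 ratio of 0.17. The loops in all 4 lists had a median log2 ratio of 0.25, so the difference between cell types was no larger at the shared auxin-only loops. Scaling between the lists may also bear on which pairs pass, which was not tested. At the 12979 pairs in both ESC lists the median log2 of auxin to control was -0.11 for counts and 0.03 for the caller's expected background, and at the 22391 pairs in both NPC lists it was -0.07 and 0.20. The part of changed cell state and of the direct loss of CTCF in any of these values cannot be told apart in this design.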

How the data were processed

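Reads had been aligned to mm10 with BWA and handled with Picard, per the submitters' processing notes. Any pooling of a group's 2 samples ahead of the calls was not given in the sources used here. Per the file headers, the deposited MAPS lists give for each bin pair a read count, the expected background signal, their ratio, a p-value and FDR, and the fraction GC and mappability of the anchors. The deposited FitHiChIP lists give contact counts, coverage signal and q-values. All were used as the authors deposited them.

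Bin pairs were matched by exact bins. The members and gene lists were chosen with earlier results of these data known. Promoter bins were set for 20665 coding autosomal genes: 16457 by a RefSeq start, 2892 by a gene end marked as a peak bin, which can be a neighbour's promoter, and 1316 had none, which left 19066 bins. Named were the 20 promoter bins with the most members, the 12 promoter pairs of highest ratio, the 6 pairs of highest count and the leading 2 genes of each list, apart from a few items not reported here. Scripts were tested on simulated lists and used Python 3.11.15, numpy 2.4.6, pandas 2.3.3, scipy 1.17.1 and matplotlib 3.10.9.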

Additional observations from a re-analysis of the deposited data

Results flagged for a closer look

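FitHiChIP also listed pairs outside the main measurement, at distances and on chromosomes that the MAPS lists do not hold. The same rule applied to the FitHiChIP lists gave 149 pairs over 1000 kb that were listed after auxin in both cell types and in no control. These 149 were 14.7% of the pairs that met the rule, against 25% of all pairs in its ESC auxin list and 23% in its NPC auxin list. Of the 6018 FitHiChIP control pairs lost in both cell types, 271 (4.50%) lay over 1000 kb. The share of long pairs was thus below that of either auxin list and above that of the lost pairs. On the X or Y chromosome the rule gave 29 pairs, 2.86% of those that met it. The share there was 1.83% of the lost pairs (110), 1.54% of the ESC auxin list and 2.25% of the NPC auxin list. Neither number has a replicate check.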

How the results depend on the processing

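Of 55 values recomputed under other settings, 22 stayed within their limits and 33 moved, and the cause was not tested beyond the stricter or looser rule itself. No paired analysis was possible because each group is 1 list and the columns carry no replicate numbers. With a tolerance of 1 bin per anchor between the auxin lists there were 3507 loops in 4906 bins, 57.8% with a control loop within 1 bin, making up 24.0% of ESC and 18.2% of NPC auxin-only loops. With no control loop within 1 bin there were 679 in 1153 bins (8.23% and 6.32%). An FDR under 0.0001 in both auxin lists left 389 in 678 bins (9.71% and 6.62%), with a median distance of 190 kb and peak bins at both anchors in 60.7%. A ratio of at least 3 left 391 in 717 bins (7.21% and 5.32%), with 420 kb and 30.4%. The 2 stricter rules thus moved distance and peak class in opposite directions.

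The FitHiChIP lists gave 1015 pairs in 1746 bins, with a median of 340 kb, 43.7% near a control loop, peak bins at both anchors in 78.9%, and 11.6% of NPC auxin-only pairs. The following were chosen after seeing the data. Limited to 1000 kb and autosomes FitHiChIP gave 837 in 1463 bins, with 39.9%, 86.4% and 12.5%. Leaving out loops in a FitHiChIP control list left 1679, with peak bins at both anchors in 39.2%, and leaving out the 2 fullest windows left 1735. The thresholds and 1 list per group limit what absence from a list can show, and the intervals cover counting error only.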
